A study of Arabidopsis thaliana and Arabidopsis thaliana x Arabidopsis arenosa with 9 samples.

Results

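The mitochondrial genome of Arabidopsis thaliana was followed here through every row of the deposited count table whose locus identifier starts with ATMG. These rows numbered 146 of the 33602 loci in the table. The table holds mRNA-seq counts of seeds dissected 3 days after pollination from reciprocal crosses of the accessions Col-0 and C24, with 2 libraries for each cross, made from poly-A selected RNA of pooled siliques. In ColA9 X C24 the seed parent was ColA9 and the pollen parent C24, and in C24A9 X Col-0 the seed parent was C24A9 and the pollen parent Col-0, the A9 lines being male-sterile seed parents. By the study's methods, the second library of each cross was treated with duplex-specific nuclease, an enzyme that digests the double-stranded DNA formed first by abundant cDNA, and was amplified again. The labels and the methods call the libraries of a cross biological replicates, so within a cross the replicates differ both in the seeds they came from and in this treatment.

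Plant mitochondria keep a small genome that encodes some subunits of the respiratory chain and of ATP synthase, proteins of cytochrome c maturation, some ribosomal proteins, ribosomal and transfer RNAs and many open reading frames of no known function. The other subunits of the same complexes are encoded in the nucleus and imported. In Arabidopsis mitochondria are passed on through the seed parent, so a comparison of reciprocal crosses also compares the mitochondrial genomes of the 2 accessions, together with the maternal tissue of the seed. A poly-A tail is generally a signal for decay in plant mitochondria rather than a feature of stable messengers, and poly-A selection therefore samples these transcripts differently from nuclear ones. Arabidopsis also carries a large nuclear insertion of mitochondrial DNA on chromosome 2, whose genes are close to identical in sequence to those of the organelle.

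That insertion is where the sequence of the loci bears on their counts. The annotation linked 53 of the 146 mitochondrial loci to 55 nuclear loci, all on chromosome 2, either as their best match or as the source of a pseudogene. Of these 53, 24 carried a stated function, 29 did not, and the other 93 loci were not annotated in the sources used here and are given by identifier. In all, 116 nuclear loci in the table had at least 50% of their 80-base windows in the mitochondrial sequence of TAIR10.1, and 113 of them lay on chromosome 2 between 3239693 and 3507323. The nuclear copy of the gene for subunit 9 of ATP synthase (atp9), in AT2G07671, matched the mitochondrial gene over all 225 bases. The copies of cox3 (798 bases), atp6 (1158 bases), cob (1182 bases) and atp1 (1524 bases) also had 0 differences, and the copy of ccmFN1 had 1 difference in 1149 bases. Stretches of the nuclear sequence (RefSeq, TAIR10.1) are shown because their DNA is identical to that of the organelle, or differs from it at 1 base. The comparison is of DNA. Plant mitochondrial transcripts are edited from C to U at set sites, and the annotation lists 5 such sites for atp9, 14 for cob, 28 for ccmFN1, 6 for atp1, 2 for atp6 and 9 for cox3, so an edited read differs from the nuclear copy at those bases. The whole atp9 copy is at chr2:3251856-3252080 on the minus strand, with its first and last codon in capitals. The first 120 bases of the cob copy are at chr2:3450863-3450982 on the plus strand, with the first codon in capitals. The first 120 bases of the ccmFN1 copy are at chr2:3297890-3298009 on the plus strand, with the 1 base that differs from the mitochondrial gene in capitals.
atp9 copy in AT2G07671: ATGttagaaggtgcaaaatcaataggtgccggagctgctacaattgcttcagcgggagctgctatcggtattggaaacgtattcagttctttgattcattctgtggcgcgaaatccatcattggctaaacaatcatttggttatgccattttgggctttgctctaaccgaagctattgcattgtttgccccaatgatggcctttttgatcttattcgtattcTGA
cob copy in AT2G07727: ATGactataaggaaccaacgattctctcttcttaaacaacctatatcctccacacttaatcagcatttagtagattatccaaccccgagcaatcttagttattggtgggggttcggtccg
ccmFN1 copy in AT2G07783: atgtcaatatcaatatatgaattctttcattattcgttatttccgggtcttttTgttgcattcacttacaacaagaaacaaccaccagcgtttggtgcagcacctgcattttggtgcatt

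Library totals ranged from 3538335 to 6498145 reads. At these depths a locus listed with 0 reads could be present at up to 3, or 0.462 to 0.848 reads per 1000000 reads (RPM). Markers of the seed coat, a maternal tissue, summed to 14844 and 5036 RPM in replicates 1 and 2 of ColA9 X C24 and to 26033 and 9209 in those of C24A9 X Col-0, with all of them detected in every library. Endosperm markers summed to 48.9 to 159.9 RPM in the 4 libraries, embryo markers to 3.54 to 37.6, and the 2 green tissue markers to 377 to 1307. Pollen markers summed to 0.656 to 2.54 RPM except in C24A9 X Col-0 replicate 2, at 22.1. That library stood apart in another way. Of 9675 loci with 0 reads in the other 5 columns of the table, 62.2% had a read in it. Among the mitochondrial loci the same count was 7 of 84, or 8.33%.

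The share of reads on mitochondrial loci was below 1% in every library and was higher in C24A9 X Col-0. It was 0.0993% in ColA9 X C24 replicate 1 (95% Wilson interval 0.0969% to 0.102%) and 0.0501% in replicate 2 (0.0478% to 0.0525%). It was 0.207% in C24A9 X Col-0 replicate 1 (0.203% to 0.211%) and 0.353% in replicate 2 (0.348% to 0.358%). They account for the counting of reads and for nothing else. Both libraries of C24A9 X Col-0 lay above both of ColA9 X C24. The means were 0.0747% ± 0.0348 (SD, n = 2) in ColA9 X C24 and 0.280% ± 0.103 (SD, n = 2) in C24A9 X Col-0. The exact two-sided permutation test gave p = 0.33, the smallest value that 2 libraries against 2 allow. From replicate 1 to replicate 2 the share went to 0.505 of its value in ColA9 X C24 and to 1.71 of its value in C24A9 X Col-0, opposite directions in the 2 crosses.

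Those reads fell on very few loci. ATMG00020, ATMG01390 and ATMG00030 held 94.7% of all reads on mitochondrial loci in the 4 libraries. A list of names drawn up for planning gave ATMG00020 and ATMG01390 as ribosomal RNA loci. The annotation used here did not check those names. ATMG00020 had 2686 and 1001 reads in replicates 1 and 2 of ColA9 X C24 and 4699 and 11477 in those of C24A9 X Col-0. ATMG01390 had 3233 and 129 reads in ColA9 X C24 and 6877 and 5050 in C24A9 X Col-0. ATMG00030 had 262 and 300 reads in ColA9 X C24 and 786 and 1731 in C24A9 X Col-0. All 3 were higher in both C24A9 X Col-0 libraries than in either ColA9 X C24 library, and ATMG01390 was at its lowest in ColA9 X C24 replicate 2.

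The other 143 loci together had 42.0 and 96.9 RPM in replicates 1 and 2 of ColA9 X C24 and 44.6 and 225 in those of C24A9 X Col-0. For them the crosses overlapped, with replicate 2 above replicate 1 in both (exact two-sided permutation test between crosses, p = 0.667). Over the 4 libraries 80 of the 146 loci had 0 reads, 33 had at least 1 but under 10, 25 at least 10 but under 100, 5 at least 100 but under 1000 and 3 at least 1000. Only 26 had a read in every library. A filter of at least 10 reads in at least 2 libraries left 18 loci, of which the annotation named only ATMG01080 and ATMG00730. The 48 loci with reads that did not pass the filter were not tested in the main comparison.

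**Figure D1:**
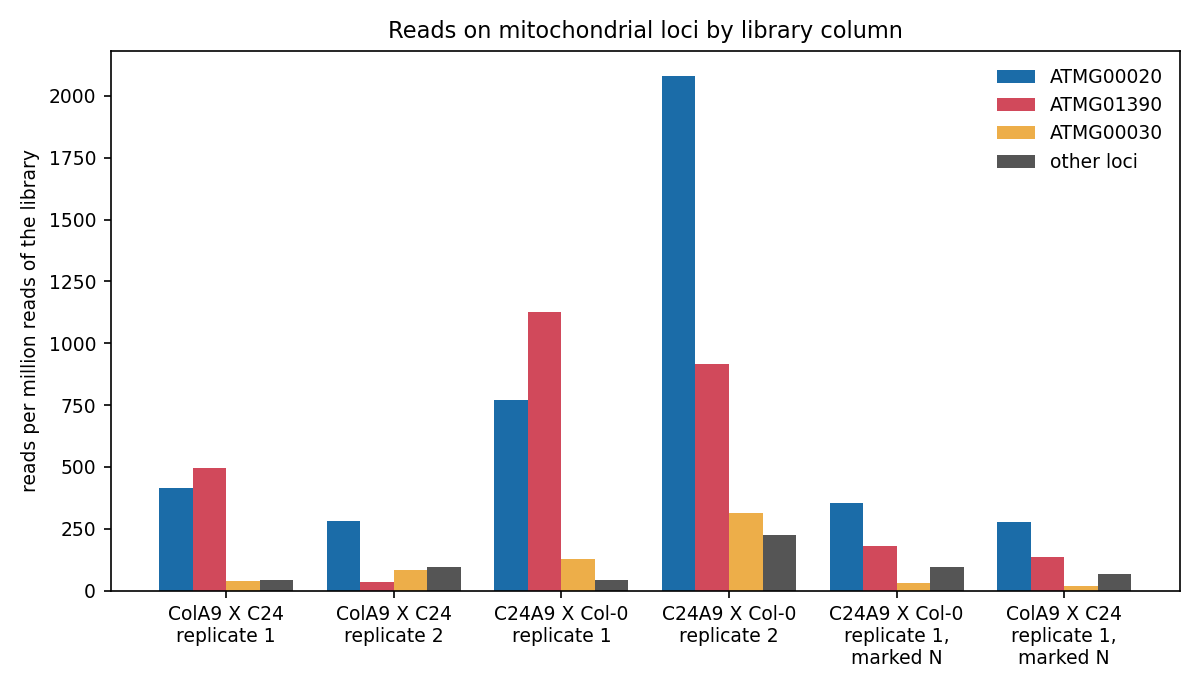
Reads per 1000000 reads of the library (linear axis from 0) on ATMG00020, ATMG01390, ATMG00030 and the sum of the other 143 mitochondrial loci, in the 4 libraries and in the 2 columns marked N, 1 bar each. ATMG01390 is the highest bar in both replicate 1 libraries, and ATMG00020 in both replicate 2 libraries and both columns marked N.

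The make-up of the mitochondrial reads went with the replicate number. ATMG01390 took 50.1% of them in ColA9 X C24 replicate 1 and 54.4% in C24A9 X Col-0 replicate 1, against 7.28% and 25.9% in the replicate 2 libraries. ATMG00020 took 41.6% and 37.2% in the replicate 1 libraries and 56.5% and 58.8% in the replicate 2 libraries. The order of the 2 loci was therefore turned around between replicate numbers in both crosses. The 143 other loci took 4.23% and 2.15% in the replicate 1 libraries, and 19.3% and 6.38% in replicate 2, ColA9 X C24 first.

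Among the 24 loci to which the annotation gave a function, those for the respiratory chain and ATP synthase had few reads. ATMG01080, for subunit 9 of the membrane part of ATP synthase, had 17 and 21 reads in ColA9 X C24 and 10 and 63 in C24A9 X Col-0 (replicates 1 and 2). ATMG00730, for subunit 3 of cytochrome c oxidase, had 22 and 17 reads in ColA9 X C24 and 21 and 28 in C24A9 X Col-0, the most even counts of the 18 loci tested. The ranges of raw counts overlapped between the crosses for both loci. ATMG00410, for subunit 6-1 of ATP synthase, had 2 and 4 reads in ColA9 X C24 and 0 and 21 in C24A9 X Col-0. ATMG01190, for subunit 1 of the catalytic part of ATP synthase, had 0 and 2 reads in ColA9 X C24 and 0 and 5 in C24A9 X Col-0. Neither of these passed the filter. ATMG00220, for apocytochrome b of the cytochrome bc1 complex, had 0 reads in all 6 columns. The 3 loci annotated as NADH dehydrogenase had 3, 3, 1 and 6 reads in total in the 4 libraries, ColA9 X C24 first. The 3 loci annotated for cytochrome c maturation had 0, 1, 0 and 6, and the 4 annotated for ribosomal proteins had 0 in each. The planning list, which the annotation did not check, placed further loci in these classes, so the totals above cover the annotated loci only. ATMG00090, listed as a ribosomal protein locus, had 15 and 47 reads in ColA9 X C24 and 30 and 306 in C24A9 X Col-0. ATMG00080, also listed so, had 5 and 12, and 27 and 76. ATMG01360 and ATMG00160, listed for cytochrome c oxidase, had 46 and 39, and 35 and 171, and 15 and 32, and 2 and 62. For NADH dehydrogenase the list held ATMG00070, with 11 and 16, and 2 and 26, and ATMG00650, with 4 and 10, and 7 and 14. For ATP synthase it held ATMG00640, with 7 and 23, and 9 and 32, and ATMG01170, with 12 and 12, and 1 and 29.

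For several of these genes most reads were counted on the linked nuclear locus. Such a locus can be longer than the copied gene. AT2G07727 spans chr2:3449534-3452776 and its cob copy chr2:3450863-3452044. Where in a locus the reads lay cannot be seen in counts. Apocytochrome b had 0 reads on ATMG00220 and 92 on AT2G07727 over the 4 libraries. Subunit 1 of ATP synthase had 7 on ATMG01190 and 49 on AT2G07698. In the other direction, subunit 9 had 111 on ATMG01080 and 8 on AT2G07671, and subunit 6-1 had 27 on ATMG00410 and 0 on AT2G07741. Subunit 3 of cytochrome c oxidase was divided, with 88 on ATMG00730 and 39 on AT2G07687. Of the 55 linked pairs, 25 had more reads on the nuclear copy, 12 more on the mitochondrial locus, 2 the same number and 16 none on either. In 17 pairs all the reads were on the copy. In the Col-0 sequences compared here, a read over no editing site and no base that differs has the same letters from either source. The level of each linked locus is therefore uncertain. The mitochondrial sequence of C24 was not compared. Editing of individual reads cannot be seen in counts. The study used BWA at its default settings with an added quality trim. It does not state how reads with more than 1 best position were placed or counted.

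**Figure D2:**
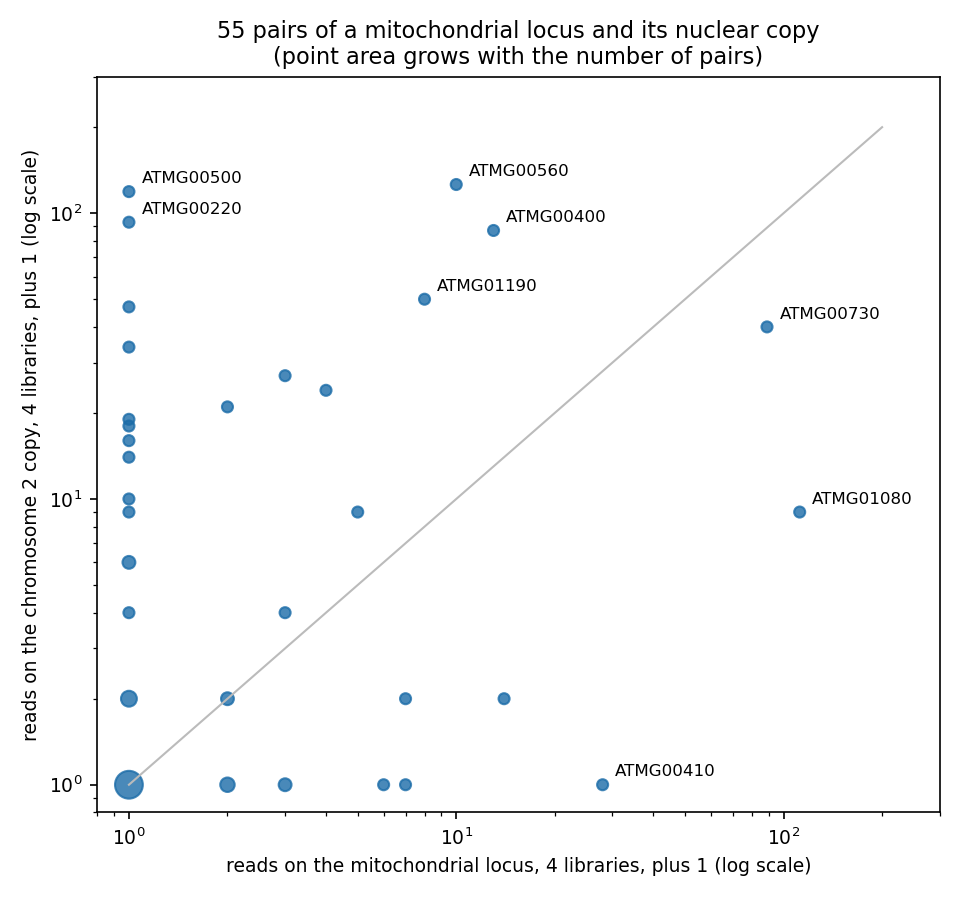
Reads over the 4 libraries, plus 1, on each linked mitochondrial locus (x axis, log scale) and on its chromosome 2 copy (y axis, log scale), for 55 pairs, with the line of equal counts and point area growing with the number of pairs at a position. Points on the left edge, such as ATMG00220 at 0 against 92, have no read on the mitochondrial locus, while ATMG01080 at 111 against 8 lies on the other side of the line.

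The 116 nuclear copies together had 648 and 1218 reads in ColA9 X C24 and 677 and 4238 in C24A9 X Col-0 (replicates 1 and 2). Most of the difference between replicate numbers came from AT2G07783, annotated as a pseudogene of a cytochrome c biogenesis gene, with 17 and 850 reads in ColA9 X C24 and 17 and 2580 in C24A9 X Col-0. Its log2 fold change of replicate 2 over replicate 1 was 6.44 ± 0.39 (SE). Without it the copies had 631 and 368 reads in ColA9 X C24 and 660 and 1658 in C24A9 X Col-0. Among the mitochondrial loci, ATMG00830 had 0 and 1 reads in ColA9 X C24 and 0 and 55 in C24A9 X Col-0 and did not pass the filter, a locus singled out after its values were seen. The planning list gave it the name ccmFN1, the gene whose copy lies in AT2G07783. The annotation did not link these 2 loci, so they are not among the 55 pairs.

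The first comparison was between the crosses, given as ColA9 X C24 over C24A9 X Col-0. No mitochondrial locus passed edgeR's quasi-likelihood test at a Benjamini-Hochberg adjusted p under 0.05, and none of the 16779 loci tested did (0%). At an unadjusted p under 0.05 there were 3 of 18 mitochondrial loci and 1251 loci in all (7.46%), and DESeq2 called 2 of 18 and 302 in all (1.8%). The estimates pointed to lower levels in ColA9 X C24 for 16 of the 18, with a median log2 fold change of -0.70 against -0.01 over all loci tested. Normalized counts, in reads per 1000000 of effective library size, did not overlap between the crosses for 6 of the 18, all lower in ColA9 X C24. Over all loci tested 17.2% did so in that direction and 19.6% in the other.

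Both libraries numbered 2 shared the nuclease treatment, so the replicate number pairs the libraries. With the replicate number as a block, edgeR called 4 of the 18 loci, all lower in ColA9 X C24, against 6.66% of all loci tested, 4.42% lower and 2.24% higher. ATMG00030 had normalized counts of 40.2 and 67.4 in ColA9 X C24 and 186 and 281 in C24A9 X Col-0. Its log2 fold change was -2.14 ± 0.29 (SE, edgeR adjusted p = 0.000801 with the block, 0.388 without). ATMG00020 had 413 and 225 in ColA9 X C24 and 1115 and 1863 in C24A9 X Col-0. Its log2 fold change was -2.24 ± 0.45 (SE, edgeR adjusted p = 0.0113 with the block, 0.548 without). For both the crosses were well apart within each replicate number.

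The other 2 loci called with the block had fewer reads. ATMG00090 had normalized counts of 2.30 and 10.6 in ColA9 X C24 and 7.12 and 49.7 in C24A9 X Col-0. Its crosses overlapped over all 4 libraries and separated within each replicate number, at a log2 fold change of -1.99 ± 0.39 (SE, edgeR adjusted p = 0.00787 with the block, 0.777 without). ATMG00080 had 0.768 and 2.69 in ColA9 X C24 and 6.41 and 12.3 in C24A9 X Col-0, at a log2 fold change of -2.55 ± 0.63 (SE, edgeR adjusted p = 0.0304 with the block, 0.566 without). With the block no library could be left out with a test, since no residual degrees of freedom remain. Without the block, leaving out 1 library in turn gave log2 fold changes from -2.54 to -1.79 for ATMG00030 and from -2.72 to -1.81 for ATMG00020, and none passed. ATMG00080 ranged from -3.58 (without ColA9 X C24 replicate 2) to -1.79 (without ColA9 X C24 replicate 1). ATMG00090 ranged from -3.63 (without ColA9 X C24 replicate 2) to -0.17 (without C24A9 X Col-0 replicate 2), so its size rests on the library with 306 of its reads.

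ATMG01390 did not pass in either fit, although its estimate with the block was the largest. Its normalized counts were 497 and 29.0 in ColA9 X C24 and 1631 and 820 in C24A9 X Col-0. The crosses did not overlap, but the ColA9 X C24 libraries lay far from each other. The log2 fold change was -3.23 ± 0.91 with the block and -2.22 ± 1.29 without (SE, edgeR adjusted p = 0.146 and 0.806). Without the block it was -5.40 when ColA9 X C24 replicate 1 was left out and -1.31 when replicate 2 of that cross was left out. ATMG00690 was also without overlap, at 0.921 and 2.47 in ColA9 X C24 and 2.85 and 8.12 in C24A9 X Col-0, and did not pass in either fit. ATMG00730 was without overlap by a small margin, at 3.38 and 3.82 against 4.98 and 4.55, with a log2 fold change of -0.40 ± 0.63 (SE).

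**Figure D3:**
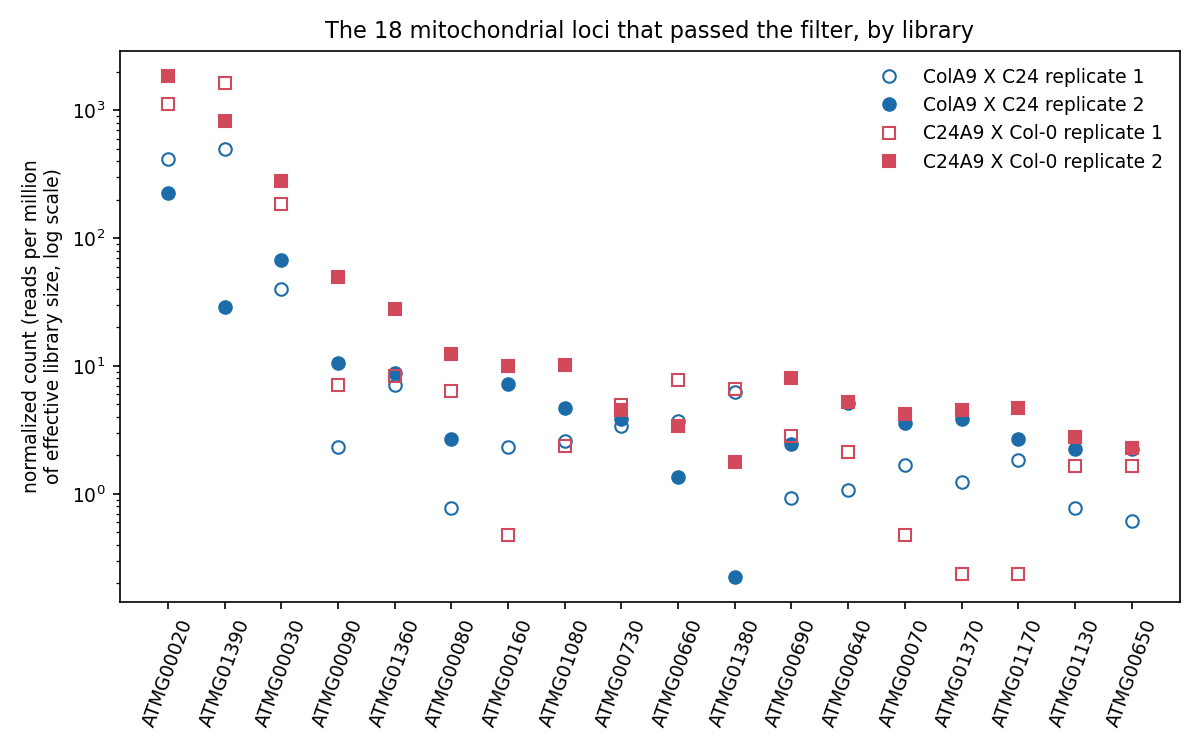
Normalized counts (reads per 1000000 of effective library size, log scale) of the 18 mitochondrial loci that passed the filter, 1 point per library, in order of mean level. Squares (C24A9 X Col-0) lie above circles (ColA9 X C24) for ATMG00020, ATMG01390, ATMG00030, ATMG00080, ATMG00690 and, narrowly, ATMG00730.

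**Figure D4:**
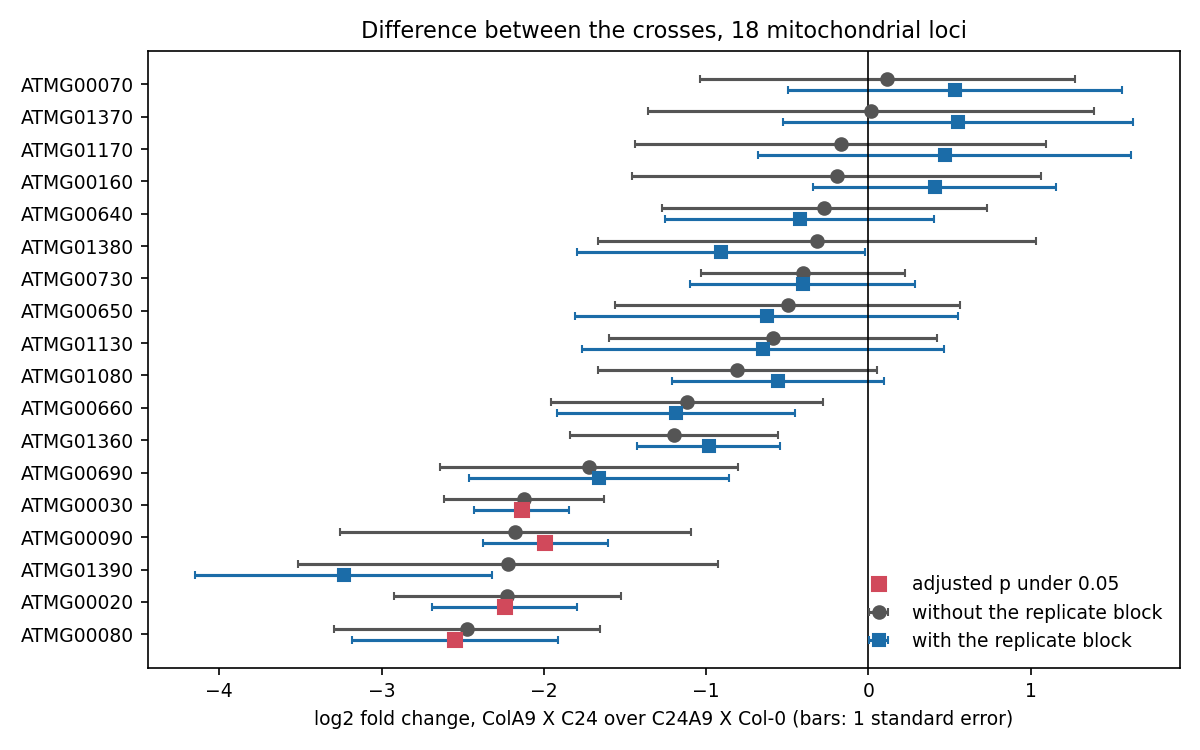
Log2 fold change of ColA9 X C24 over C24A9 X Col-0 with 1 standard error for the 18 loci, without the replicate block (circles) and with it (squares, red where the adjusted p is under 0.05). The 4 red squares, ATMG00080, ATMG00020, ATMG00090 and ATMG00030, lie between -2.55 and -1.99.

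A few loci with low counts ran the other way in the replicate 1 libraries. ATMG00160 had 15 and 32 reads in ColA9 X C24 and 2 and 62 in C24A9 X Col-0. ATMG01170 had 12 and 12 in ColA9 X C24 and 1 and 29 in C24A9 X Col-0. ATMG01370 had 8 and 17 in ColA9 X C24 and 1 and 28 in C24A9 X Col-0. ATMG00070, singled out after its values were seen, had 11 and 16 in ColA9 X C24 and 2 and 26 in C24A9 X Col-0. In all of these, C24A9 X Col-0 was the lowest library at replicate 1 and the highest at replicate 2. In RPM, C24A9 X Col-0 was at 0.142, 0.0887, 0.133 and 0.194 of ColA9 X C24 for ATMG00160, ATMG01170, ATMG01370 and ATMG00070 in replicate 1, and at 1.24, 1.55, 1.06 and 1.04 in replicate 2. Without C24A9 X Col-0 replicate 2, the log2 fold change of ATMG00160 was 3.23 in place of -0.20 and that of ATMG01170 was 3.11 in place of -0.17, neither past the threshold (edgeR adjusted p = 0.345 and 0.341).

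Besides the 4 libraries, the table has 2 columns named for replicate 1 of each cross with an added N. What the mark stands for is not given in the sources used here, and they entered no test. Their share of reads on mitochondrial loci was 0.0499% for ColA9 X C24 and 0.0662% for C24A9 X Col-0, a ratio of 1.33 between the crosses against 2.08 in the unmarked replicate 1 columns and 7.05 in replicate 2. ATMG00020 was 1.28 times as high in C24A9 X Col-0 in the columns marked N against 1.86 in the unmarked replicate 1 columns, and ATMG00030 was 1.59 times as high against 3.19. Other loci had a larger ratio in the columns marked N, such as ATMG00090 (3.65 against 2.13), ATMG00690 (5.14 against 2.13) and the sum of the loci outside the 3 most abundant (1.40 against 1.06). ATMG01170, ATMG01370 and ATMG00160 were lower in C24A9 X Col-0 here too, at 0.114, 0.137 and 0.381 of ColA9 X C24, while ATMG00070 was 2.28 times as high. In the columns marked N, as in the replicate 2 libraries, ATMG00020 was above ATMG01390. The block rests on the nuclease treatment of replicate 2, and whether the mark N stands for a treatment of the same kind was not tested; if it did, the sense of the replicate number as a pairing would need to be looked at again.

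The second comparison set replicate 2 against replicate 1, with the cross as a covariate. Of the 18 mitochondrial loci, 2 rose and 0 fell in edgeR's test, which called 9.91% of the 16779 loci tested, 3.23% as risen and 6.68% as fallen. The median log2 fold change of the 18 was 1.18, against 0.07 over all loci tested. In both crosses 13 of the 18 had higher normalized counts in replicate 2 and 3 had lower ones, against 36.7% and 32.8% of all loci tested. Of the 13, ATMG00640, ATMG01370, ATMG01130 and ATMG00650 had under 10 reads in both replicate 1 libraries. They passed the filter through replicate 2 alone, so the count and the median follow in part from the filter. How many of all loci tested passed in that way was not counted. ATMG00090 rose, by a log2 fold change of 2.54 ± 0.39 (SE, edgeR adjusted p = 0.00158), at 2.20 in ColA9 X C24 and 2.80 in C24A9 X Col-0. ATMG00160 rose by 2.66 ± 0.77 (SE, edgeR adjusted p = 0.0473), at 1.64 in ColA9 X C24 and 4.41 in C24A9 X Col-0. The call of ATMG00160 was lost with DESeq2 (adjusted p = 0.0726), and both calls were lost in edgeR without the cross term (adjusted p = 0.362 for ATMG00160 and 0.379 for ATMG00090). ATMG01370 was at 2.54 ± 1.11 (SE) and did not pass.

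On the other side, 3 loci had lower normalized counts in replicate 2 of both crosses and none passed the main test. Under other settings of edgeR, ATMG01380 passed with median-of-ratios size factors (adjusted p = 0.0336), and ATMG01380 and ATMG01390 passed with no filter on low counts (adjusted p = 0.0201 and 1.21e-06). ATMG01390 was at a log2 fold change of -2.51 ± 0.90 (SE, edgeR adjusted p = 0.187), at -4.10 in ColA9 X C24 and -0.99 in C24A9 X Col-0. ATMG01380 had 41 and 1 reads in ColA9 X C24 and 28 and 11 in C24A9 X Col-0, at a log2 fold change of -2.83 ± 0.91 (SE, edgeR adjusted p = 0.071). ATMG00660 had 24 and 6 reads in ColA9 X C24 and 33 and 21 in C24A9 X Col-0, at -1.30 ± 0.74 (SE). ATMG00020 and ATMG00730 moved in opposite directions in the crosses, the former at -0.88 in ColA9 X C24 and 0.74 in C24A9 X Col-0.

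**Figure D5:**
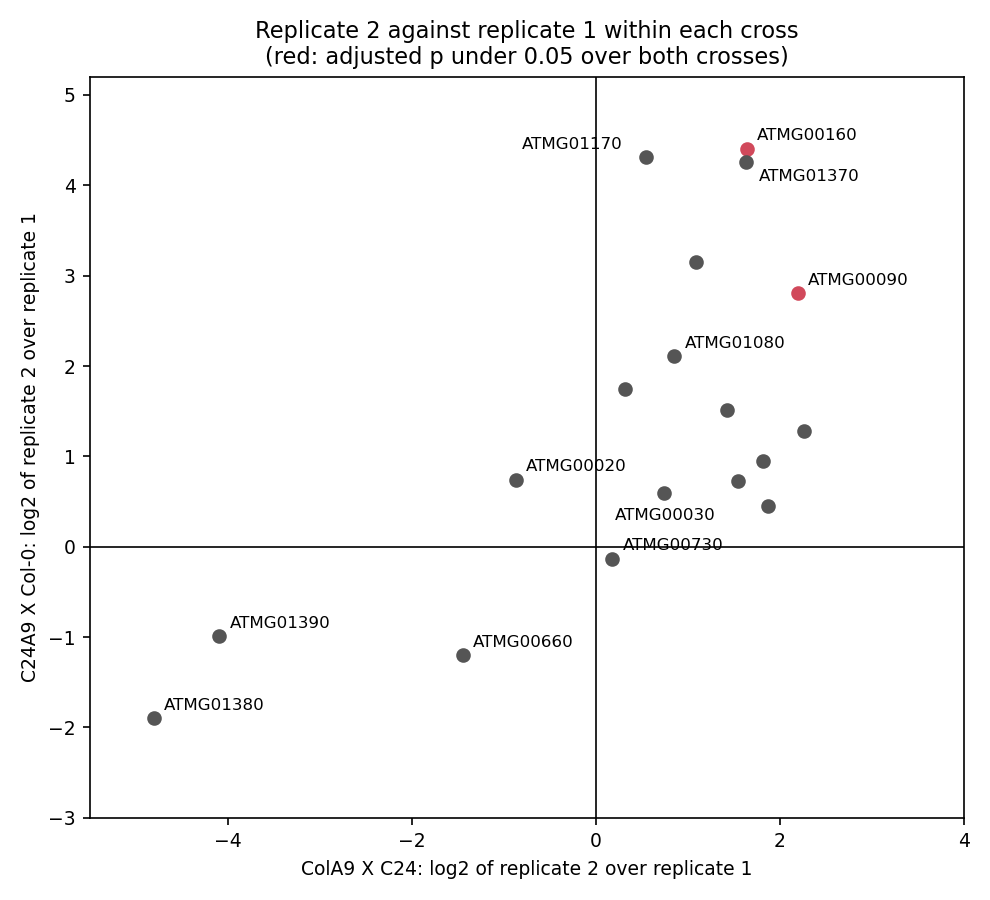
Log2 of the normalized count in replicate 2 over that in replicate 1, in ColA9 X C24 (x axis) and in C24A9 X Col-0 (y axis), for the 18 loci, with the 2 that passed edgeR's test in red. Most points lie at upper right, with ATMG01390, ATMG01380 and ATMG00660 at lower left.

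The lowest locus to pass the filter, ATMG00650, had 4 and 10 reads in ColA9 X C24 and 7 and 14 in C24A9 X Col-0, with overlap of the crosses in normalized counts. ATMG00060 had 8, 4, 3 and 29 reads in the 4 libraries in the same order and did not pass the filter. ATMG01280, annotated through its nuclear copy as like subunit II of cytochrome c oxidase, had 0 reads in all 6 columns, as did that copy, AT2G07695. Both had 0 reads out of 3538335 or more in every library. The planning list, which the annotation did not check, gave the gene for subunit II (cox2) as ATMG00160. That locus had 15 and 32 reads in ColA9 X C24 and 2 and 62 in C24A9 X Col-0.

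Nuclear genes that work with these loci were counted from lists chosen by function. Of 32 nuclear-encoded genes of the respiratory chain and ATP synthase, 31 were tested, and 10 fell and 0 rose in replicate 2, at a median log2 fold change of -0.77, beside the 6.68% and 3.23% of all loci given above. Examples are CYTC-1 (AT1G22840), a cytochrome c, with 1838 and 375 reads in ColA9 X C24 and 1515 and 722 in C24A9 X Col-0, and GAMMA CAL1 (AT5G63510), a gamma carbonic anhydrase-like subunit of complex I, with 666 and 155 in ColA9 X C24 and 724 and 349 in C24A9 X Col-0. Both fell in replicate 2. Of 17 nuclear genes of organelle gene expression and genome upkeep, 16 were tested and 0 passed in either direction, at a median of 0.54. Of the 5 alternative oxidases, which bypass the cytochrome part of the chain, 2 were tested and 0 passed. AOX1A (AT3G22370) had 7 and 30 reads in ColA9 X C24 and 14 and 45 in C24A9 X Col-0.

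Between the crosses none of the genes in these lists passed without the block. With the block, 2 of the 31 respiratory chain genes were lower in ColA9 X C24 and 0 higher, against 4.42% and 2.24% of all loci tested, and 0 of the 16 genes of organelle gene expression passed. Their median log2 fold changes without the block were -0.24 and 0.30. The 133 chloroplast loci, the other genome of the seed parent's line, had 441 and 6631 reads in ColA9 X C24 and 343 and 34779 in C24A9 X Col-0. Of the 47 tested, 38 rose in replicate 2, at a median log2 fold change of 5.70 beside the 1.18 of the mitochondrial loci. Between the crosses, all 47 had estimates lower in ColA9 X C24, at a median of -2.33 beside the -0.70 of the mitochondrial loci, and 0 passed without the block. With the block 18 of the 47 were called lower in ColA9 X C24 and 0 higher, so lower calls in that cross were made in both organelle genomes. For the chloroplast loci, however, normalized counts overlapped between the crosses for 46 of the 47, and 1 was lower without overlap. In RPM, which uses library totals, the chloroplast loci summed to 67.9 in ColA9 X C24 and 56.2 in C24A9 X Col-0 in replicate 1. The factors that turn these totals into effective library sizes were 1.00 for ColA9 X C24 and 0.692 for C24A9 X Col-0. On the normalized scale of the fits, C24A9 X Col-0 was therefore the higher in replicate 1, and the reverse order held in RPM only. In replicate 2 the sums were 1874 and 6299 RPM. Seed coat and green tissue markers, at the levels given above, were higher in C24A9 X Col-0 than in ColA9 X C24 within each replicate number, as were the mitochondrial reads. So were the endosperm markers, at 60.5 against 48.9 RPM in replicate 1 and 159.9 against 125.8 in replicate 2. Embryo and pollen markers did not keep 1 order. In C24A9 X Col-0 against ColA9 X C24, embryo markers were at 3.61 against 3.54 RPM in replicate 1 and 25.4 against 37.6 in replicate 2. Pollen markers were at 0.656 against 1.08 and at 22.1 against 2.54. The part of these tissues in the difference was not tested. The accession of the mitochondrial genome, the maternal tissue and the fit of each accession's reads to 1 reference cannot be told apart in this design. The mitochondrial gene models of that reference come from C24, the accession of the C24A9 seed parent.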

How the data were processed

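The authors made the libraries from poly-A selected seed RNA, trimmed reads, used BWA for alignment to the TAIR10 cDNA set, processed alignments with SAMtools 0.1.7 and deposited raw counts of reads per locus in 6 columns. The 4 unmarked columns were used in tests, and the 2 marked N as values only. The 5 amplicon samples were not analysed here. Loci were tested with edgeR 4.0.16 (quasi-likelihood, robust, TMM, Benjamini-Hochberg over all loci with 10 or more reads in 2 or more libraries), in R 4.3.3. Log2 fold changes are ColA9 X C24 over C24A9 X Col-0, or replicate 2 over replicate 1. The replicate number pairs the libraries because the study treated replicate 2 of both crosses alike; the differences between replicates correlated across 16779 loci at Pearson r = 0.553 between the crosses, genes not being independent replicates. DESeq2 1.42.0, other scalings, filters and left-out libraries were alternatives. Fits were also run on simulated data, with a fixed spread between libraries (dispersion) of 0.0733, that of the fit with the block. The fit without the block had a common dispersion of 0.209. The simulation therefore cannot decide between the 2 fits, and its outcome is not used here.

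Names came from notes on nuclear loci in the TAIR10.1 annotation, which matched 53 of 146 loci. A list drawn up for planning named further loci, and those names were not checked by this annotation. Windows of 80 bases were compared with the Col-0 mitochondrial sequence of TAIR10.1. The mitochondrial gene models of TAIR10 come from C24, so no mitochondrial coordinates are given. Loci were named by a rule on level, size of difference and test result, with some set by identifier. The loci, lists and markers were chosen with earlier results of these data known.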

Additional observations from a re-analysis of the deposited data

Results flagged for a closer look

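The share of reads on mitochondrial loci moved in opposite directions from replicate 1 to replicate 2, to 0.505 of its value in ColA9 X C24 and to 1.71 of its value in C24A9 X Col-0. ATMG00020 did the same, at a log2 difference of -0.88 in ColA9 X C24 and 0.74 in C24A9 X Col-0. ATMG00730 moved by 0.18 and -0.13 on the same scale. With 1 library per cross and replicate number, the difference between the crosses in these values was not tested.

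The 2 columns marked N entered no test, were given as values only, and held 1935 reads on mitochondrial loci beside ColA9 X C24 replicate 1 and 2249 beside C24A9 X Col-0 replicate 1, above the 3 reads that a count of 0 allows.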

How the results depend on the processing

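Between the crosses, mitochondrial loci called rose from 0 to 4 with the replicate block, 2 with DESeq2 and 2 with no filter on low counts. All loci called rose from 0 to 1118, 302 and 585 in those settings, and ranged from 0 to 46 with 1 library left out, the 46 without ColA9 X C24 replicate 2. The median log2 fold change of the mitochondrial loci was -2.23 over the 3 loci with 50 or more reads in 2 or more libraries, and -1.30 to -0.63 with 1 library left out. Between replicate numbers, mitochondrial loci called went from 2 (both risen) to 0 without the cross term, 1 with DESeq2, 3 with median-of-ratios size factors (2 risen, 1 fallen), 5 with no filter (3 risen, 2 fallen) and 0 of 3 with 50 or more reads. With 1 library left out that median was 0.65 to 1.24, with no test, since no residual degrees of freedom remain.

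Signs of low loci turned between the crosses. With the replicate block ATMG00160 was at 0.41 and ATMG01170 at 0.47, neither called. With 1 library left out, the log2 fold change ranged from -1.22 (without ColA9 X C24 replicate 2) to 3.23 (without C24A9 X Col-0 replicate 2) for ATMG00160, from -1.06 (without C24A9 X Col-0 replicate 1) to 3.11 (without C24A9 X Col-0 replicate 2) for ATMG01170 and from -1.49 to 0.60 (without the same libraries) for ATMG01080. For ATMG00650 it ranged from -0.70 to 0.19, for ATMG01370 from -0.87 to 0.64 and for ATMG01380 from -4.07 to 0.89. ATMG01390 and the loci called with the block kept their sign, with ranges given beside them above. The cause was not tested. Of the values for single loci under these settings, 153 kept their direction and, where the fit gave a test, their side of the threshold. A further 11 passed it where the main value did not, 3 no longer passed it and 11 turned. Values from fits with no test were judged on direction alone. Leaving out ribosomal and transfer RNA loci was not run, since the annotation used here does not mark them. The planning list gave ATMG00020, ATMG01390 and ATMG01380 as ribosomal RNA loci, and they stayed in every setting where they passed the filter. A fit that leaves out 1 library keeps 1 library in a group, which is assumed to vary like the other group. Depth limits the 128 loci that did not pass the filter.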
